A study of Homo sapiens with 12 samples.

Results

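The genes described here are 34 components of the endoplasmic reticulum (ER) chaperone system and the unfolded protein response. They were taken as a named list and found by symbol, and all 34 were present among the 58051 genes counted. The list held 3 stress sensors, 5 transcription factors, 11 chaperones and co-chaperones, 4 protein disulphide isomerases, 3 degradation factors, 1 translocon subunit and 7 targets of ATF4 and the wider stress response. Their mRNA was measured by RNA-seq of total RNA in 12 libraries from 786-O, A-498 and ACHN, established human lines labelled as clear cell renal cell carcinoma. The 786-O cells received a miR-29 mimic (1 library) or a control mimic (1 library), and the A-498 cells received the same reagents (2 libraries each). The ACHN cells received a miR-29 inhibitor (3 libraries) or a control inhibitor (3 libraries). Every well was reverse-transfected at 10 nM and collected after 48 h, so the controls also carry the transfection reagent and a small RNA. Each line is a single established culture, and the replicates of A-498 and ACHN are described as biological. Further A-498 libraries were set aside by the study for possible mislabelling and are not analysed here. The comparisons ask whether the machinery that folds secreted proteins follows the output of matrix genes when miR-29 activity is raised or lowered.

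The ER folds and oxidises proteins that will be secreted or placed in membranes, and collagens are among the most demanding of its clients. When unfolded proteins accumulate, the sensors ERN1, EIF2AK3 and ATF6 raise the transcription of chaperones and degradation factors, slow protein synthesis and, through ATF4, switch on genes for amino acid supply and stress. The miR-29 family is best known for repressing collagens and other matrix genes, and it pairs with its target mRNAs through a short 5' seed.

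The libraries held 39919554 to 70027392 reads in genes, and the reads assigned to no single gene made up 37.2% to 48.0% of each library. The markers chosen for the renal lines (7 genes, among them the mesenchymal-type VIM and CDH2) summed to 3968 to 7037 CPM in every library (CPM, read counts scaled to a common library total with TMM factors), whereas the leukocyte markers summed to at most 0.651 CPM and the endothelial markers to at most 0.492 CPM. VIM averaged 1513 to 5138 CPM over the groups, and EPCAM, an epithelial marker, averaged at most 1.32 CPM in 786-O and A-498. The sum moved with treatment, from 5697 to 7037 CPM in 786-O, from 3968 and 4169 CPM in the A-498 controls to 5273 and 5404 CPM with the mimic, and from 5719.8 to 6156 CPM in the ACHN controls down to 4722 to 4921 CPM with the inhibitor. Its members did not all move one way, since KRT19 and CDH2 were lower with the mimic in A-498 while VIM was higher. Its part in the results on ER genes was not tested. Mature miR-29 itself is not read by these libraries. SPARC and COL4A1, matrix genes long known as miR-29 targets, fell by 2.35 and 2.44 on the log2 scale in A-498 with the mimic, were lower by log2 ratios of -2.26 and -2.42 in 786-O, and rose by 2.13 and 1.59 in ACHN with the inhibitor.

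The mature miR-29 sequences are shown because every site named below is a match to their shared seed. RefSeq gives them as follows, with the seed (bases 2 to 8) in capitals.
hsa-miR-29a-3p: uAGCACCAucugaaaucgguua
hsa-miR-29b-3p: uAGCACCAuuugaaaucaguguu
hsa-miR-29c-3p: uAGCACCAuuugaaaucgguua

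A match to this seed was searched on the sense strand of the canonical 3' untranslated region (UTR) of each member, in the GENCODE annotation of GRCh38. The words searched were TGGTGCTA (8mer), TGGTGCT without that final A (7mer-m8) and GGTGCTA without the first T (7mer-A1). Of the 34 members, 4 held an 8mer or 7mer-m8 match (11.8%), against 16.1% of the 13755 genes tested in A-498 that have an annotated 3' UTR, and CANX held a 7mer-A1 match. P4HB held a match in another isoform only. The windows below read 5' to 3' along the mRNA, with the matching bases in capitals.
ERN1, chr17:64043222-64043243, minus strand: gggccatctcggggTGGTGCTc
HSPA5, chr9:125235493-125235514, minus strand: aataaaggacaggcTGGTGCTA
CANX, chr5:179730032-179730053, plus strand: tgcgggatgcagatgGGTGCTA
DNAJB11, chr3:186585630-186585651, plus strand: ggggatttaatgtcTGGTGCTg
TRIB3, chr20:397043-397064, plus strand: gcctccactgatgcTGGTGCTc

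The first base of the match lay 759 bases past the stop codon in ERN1, 1092 in HSPA5, 1403 in CANX, 236 in DNAJB11 and 367 in TRIB3. These are matches of letters, not measured binding sites. Of the 14 chaperones and isomerases that fell in A-498, HSPA5, CANX and DNAJB11 hold one in the UTR searched, and the other 11 hold none there.

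In A-498, 28 of the 34 genes changed with the miR-29 mimic at an adjusted p under 0.05 (edgeR's quasi-likelihood test, Benjamini-Hochberg adjustment over all genes tested). Of these, 17 fell, where 27.0% of all 19676 genes tested fell, and 11 rose, where 25.5% of all genes rose. The direction divided by role. Among the 15 chaperones and isomerases 14 fell and none rose, with a median log2 fold change of -0.49 against 0.0045 for all genes tested, whereas 5 of the 7 ATF4 and stress response targets rose and 1 fell. In ACHN, 16 of the 34 genes rose with the inhibitor, where 17.3% of all 17904 genes tested rose, and 3 fell, where 14.4% of all genes fell. Among the same 15 chaperones and isomerases 9 rose and none fell, with a median log2 fold change of 0.14 against 0.0038 for all genes. The 15 log2 fold changes ran from -0.79 to -0.12 with the mimic, and from -0.034 to 0.37 with the inhibitor. Scaling by library size alone, in place of TMM, gave 17 fallen and 13 risen members in A-498, while the split over all genes turned from 5313 lower and 5015 higher to 4352 lower and 6191 higher.

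**Figure D1:**
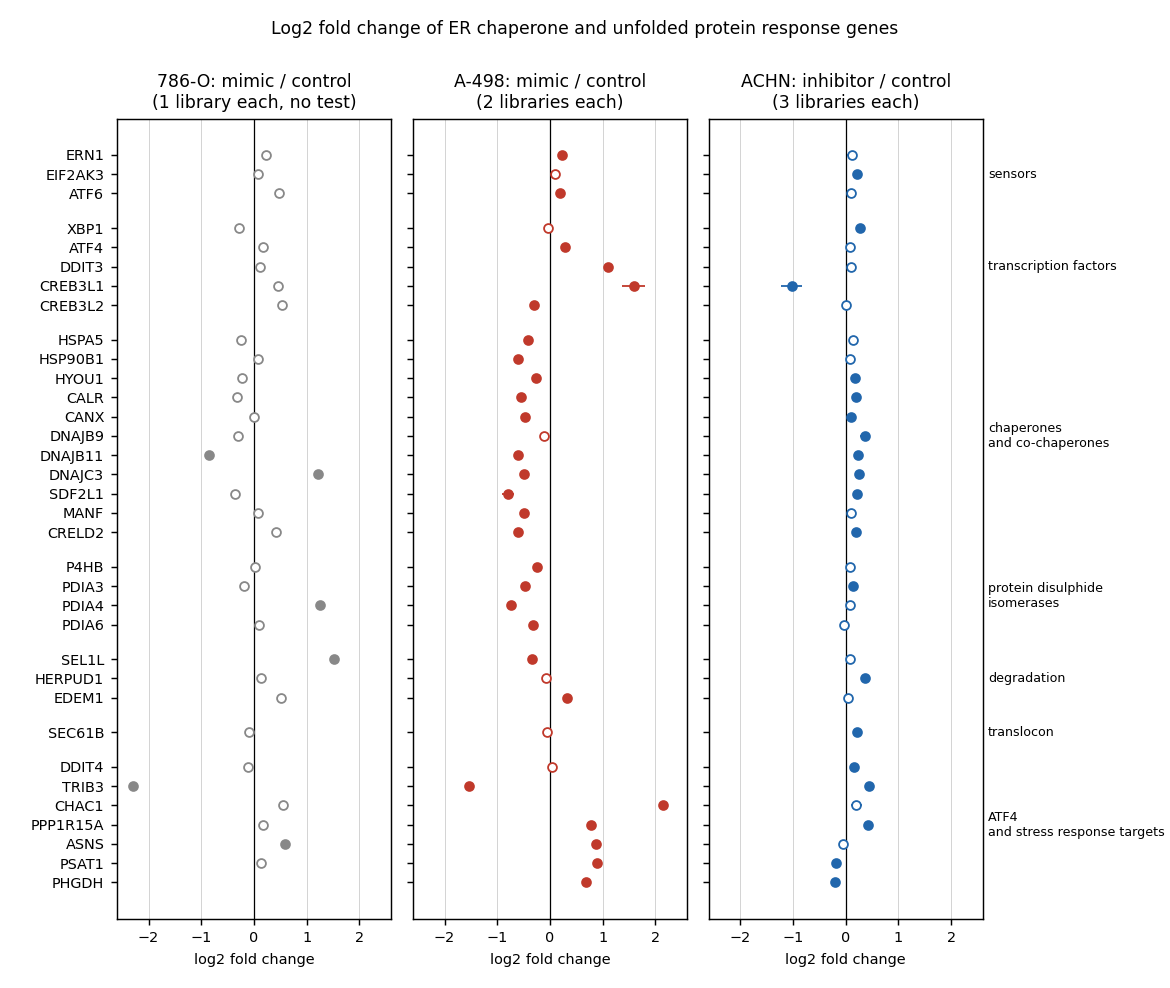
Log2 fold change (x axis) of the 34 genes, grouped by role (y axis), in 786-O and A-498 (miR-29 mimic over control mimic) and in ACHN (miR-29 inhibitor over control inhibitor). Filled points passed an adjusted p under 0.05 in A-498 and ACHN, or lay past 1.5-fold in 786-O, where there was no test, and bars are standard errors. The chaperones and isomerases lie left of 0 in A-498 (all 15) and right of 0 in ACHN (14 of 15), and PHGDH has no point in 786-O.

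Read together, 9 genes fell with the mimic in A-498 and rose with the inhibitor in ACHN, namely HYOU1, CALR, CANX, DNAJB11, DNAJC3, SDF2L1, CRELD2, PDIA3 and TRIB3, of which CANX passed narrowly in ACHN (adjusted p = 0.0417). Over the 16708 genes tested in both lines, 10.5% had this pair of calls. The opposite pair, a rise in A-498 and a fall in ACHN, was seen for CREB3L1, PSAT1 and PHGDH, against 7.37% of all genes. PPP1R15A rose in both lines, as 2.80% of all genes did. A further 8 members fell in A-498 with no call in ACHN, against 16.5% of all genes. Another 7 rose in A-498 with no call in ACHN, against 16.4%, and 6 rose in ACHN with no call in A-498, against 4.31%. No member was without a call in both lines, where 34.6% of all genes were. Calls also depend on the level at which a gene is read, and the background was not matched to the members by level. A-498 and ACHN share no libraries, but they received different reagents, and the lines differ in more than the reagent.

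The groups did not overlap at all for 33 of the 34 genes in A-498 (21 lower and 12 higher in both mimic libraries) and for 21 in ACHN (3 lower and 18 higher in all 3 inhibitor libraries). Over all genes tested, 37.3% were lower and 37.2% higher without overlap in A-498, and 20.8% and 22.8% in ACHN. In RNA from a whole well, fewer cells of a kind and less RNA per cell cannot be told apart.

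Several members carry known ER stress motifs in their promoters, and the matches are shown because several members hold the same elements. Genes of this response are known in part through such elements, so the choice of members is not independent of them. RefSeq windows of GRCh38.p14, from 250 bases before to 50 bases after each annotated start, were at hand for 33 members, not PDIA3, and for 27305 genes in all, and both strands were searched. Only exact matches were counted, so a gene without one may still hold an altered or more distant form. The ER stress response element (ERSE, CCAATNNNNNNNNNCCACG) was found for 7 members (21.2%) and for 0.0916% of all genes. They are printed on the strand that reads the motif, with the fixed bases in capitals.
XBP1, chr22:28800603-28800621: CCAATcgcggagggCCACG
HSPA5, chr9:125241391-125241409: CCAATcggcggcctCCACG
HSP90B1, chr12:103930216-103930234: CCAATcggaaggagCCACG
HSP90B1, chr12:103930321-103930339: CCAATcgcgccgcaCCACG
CALR, chr19:12938384-12938402: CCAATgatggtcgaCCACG
CANX, chr5:179698778-179698796: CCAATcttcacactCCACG
CRELD2, chr22:49918554-49918572: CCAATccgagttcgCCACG
PDIA6, chr2:10812853-10812871: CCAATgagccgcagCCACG

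The related ERSE-II (ATTGGNCCACG) was found for HYOU1, SDF2L1 and HERPUD1 (9.09% of members, 0.0696% of all genes). HYOU1 held it at chr11:119057274-119057284 and at chr11:119057380-119057390, and the second overlaps a match to TGACGTGG, the core of the unfolded protein response element, which 0.927% of all genes held.
HYOU1, chr11:119057274-119057284: ATTGGaCCACG
SDF2L1, chr22:21642114-21642124: ATTGGtCCACG
HERPUD1, chr16:56932025-56932035: ATTGGgCCACG

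The element bound by ATF4 dimers (CARE, TGATGNAA) was found for CREB3L2, HERPUD1, CHAC1 and ASNS (12.1% of members, 4.46% of all genes). Of the 9 genes with an ERSE or ERSE-II other than HERPUD1, 8 fell in A-498 and XBP1 did not pass the test there. Of the 14 chaperones and isomerases with a window, 6 hold no exact match to either. Of these, DNAJB11, DNAJC3, MANF, P4HB and PDIA4 also fell in A-498 while DNAJB9 did not pass. HERPUD1 carries both ERSE-II and CARE letters and did not pass the test in A-498. CHAC1 and ASNS, the only 2 of the 7 ATF4 and stress response targets with CARE letters, rose in A-498, and CREB3L2, which also carries them, fell. Without CARE letters in their windows, PPP1R15A, PSAT1 and PHGDH also rose there, TRIB3 fell and DDIT4 did not pass. Of the CARE matches, those of CHAC1 and ASNS alone are printed.
CHAC1, chr15:40953262-40953269: TGATGcAA
ASNS, chr7:97872469-97872476: TGATGaAA

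HSPA5 (ENSG00000044574, chr9:125234853-125241382, minus strand) encodes BiP, the main Hsp70 chaperone of the ER lumen and the protein that holds the sensors inactive. It read 389 and 385 CPM with the control mimic and 291 and 290.1 CPM with the miR-29 mimic in A-498, and 551, 510.0 and 454 CPM with the control inhibitor and 610.4, 496 and 555 CPM with the miR-29 inhibitor in ACHN. The A-498 groups lay apart, with a log2 fold change of -0.41 ± 0.035 (SE, adjusted p = 1.75e-07), while in ACHN the ranges overlapped and the change of 0.13 ± 0.065 (SE, adjusted p = 0.137) did not pass the test. That ACHN value passed without control library 1 (adjusted p = 0.0233), without inhibitor library 2 (0.00889) and without the filter on low counts (0.00327).

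HSP90B1 (ENSG00000166598, chr12:103930107-103953931, plus strand), the Hsp90 chaperone of the ER, stood at 1099 and 1126 CPM with the control mimic and 744 and 726 CPM with the miR-29 mimic in A-498. Both mimic libraries lay below both controls, at a log2 fold change of -0.60 ± 0.032 (SE, adjusted p = 1.74e-09). In ACHN it stood at 2004, 2007 and 1937 CPM with the control inhibitor and 2124, 1971 and 2196 CPM with the miR-29 inhibitor, with overlapping groups and a log2 fold change of 0.081 ± 0.036 (SE, adjusted p = 0.0955) that passed only without inhibitor library 2 (0.00494) or without the filter on low counts (0.0471).

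The lectin chaperones CALR and CANX bind newly made glycoproteins and hold them until they are folded. CALR (ENSG00000179218, chr19:12938578-12944489, plus strand) had the highest CPM per kilobase of exon of any member in all the controls. The values were 369 CPM per kb in 786-O, 302 for A-498 and 378 for ACHN. Length here merges the exons of all annotated isoforms, 2802 bases for CALR and 13092 for HSP90B1, and the rank depends on it. CALR read 859 and 833 CPM with the control mimic and 579 and 577 CPM with the miR-29 mimic in A-498. In ACHN it read 1043, 1054 and 1078 CPM with the control inhibitor and 1167, 1242 and 1229.9 CPM with the miR-29 inhibitor. The groups did not overlap in either line, and the log2 fold changes were -0.55 ± 0.033 (SE, adjusted p = 5.39e-09) in A-498 and 0.20 ± 0.033 (SE, adjusted p = 0.000171) in ACHN. CANX read 1373 and 1453 CPM with the control mimic and 1022 and 1008 CPM with the miR-29 mimic in A-498, a fall of 0.48 on the log2 scale. CANX in ACHN read 1111, 1085 and 1054 CPM with the control inhibitor and 1218, 1099 and 1179 CPM with the miR-29 inhibitor, groups that overlapped. Its log2 fold change of 0.10 there passed at an adjusted p of 0.0417, and it no longer passed when any 1 of control libraries 1, 2 and 3 or inhibitor libraries 1 and 3 was left out (0.0607 to 0.263), with library size scaling (0.0599) or with DESeq2 (0.0877).

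HYOU1, which exchanges nucleotide on BiP, read 172 and 168 CPM with the control mimic and 142 and 141 CPM with the miR-29 mimic in A-498. HYOU1 in ACHN read 247, 252 and 236 CPM with the control inhibitor and 280.3, 283 and 264 CPM with the miR-29 inhibitor. It fell in A-498 (log2 -0.27) and rose in ACHN (log2 0.17), although without ACHN control library 3 the rise had an adjusted p of 0.0504. The J-domain co-chaperones hand clients to BiP, and 2 of the 3 moved in opposite directions in the 2 lines. DNAJB11 read 38.4 and 39.1 CPM with the control mimic and 25.3 and 25.4 CPM with the miR-29 mimic in A-498, and 37.2, 39.8 and 37.6 CPM with the control inhibitor and 46.2, 44.1 and 44.8 CPM with the miR-29 inhibitor in ACHN, a fall and a rise without overlap (log2 -0.61 and 0.24). DNAJC3, which also restrains EIF2AK3, read 145 and 156 CPM with the control mimic and 109 and 106 CPM with the miR-29 mimic in A-498, and 104, 105 and 97.6 CPM with the control inhibitor and 129, 113 and 121 CPM with the miR-29 inhibitor in ACHN. Its log2 fold changes were -0.49 ± 0.044 (SE, adjusted p = 3.85e-07) and 0.25 ± 0.052 (SE, adjusted p = 0.00135). DNAJB9 was the exception in A-498, at 35.8 and 40.7 CPM with the control mimic and 35.4 and 35.2 CPM with the miR-29 mimic, a log2 fold change of -0.12 that did not pass (adjusted p = 0.137). It passed there, as a fall, without control library 1 (0.000718) and without the filter on low counts (0.0471). In ACHN, DNAJB9 read 29.3, 30.2 and 22.9 CPM with the control inhibitor and 42.4, 30.8 and 33.0 CPM with the miR-29 inhibitor and rose by 0.37 on the log2 scale, a call lost without inhibitor library 1 (adjusted p = 0.0629) and with DESeq2 (0.140).

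Of the smaller folding factors, SDF2L1, a partner of DNAJB11, read 10.5 and 8.59 CPM with the control mimic and 5.03 and 6.03 CPM with the miR-29 mimic in A-498, and 12.7, 13.5 and 12.3 CPM with the control inhibitor and 15.3, 14.9 and 14.1 CPM with the miR-29 inhibitor in ACHN. CRELD2, an ER-resident protein with epidermal growth factor-like repeats, read 31.9 and 28.9 CPM with the control mimic and 19.1 and 20.6 CPM with the miR-29 mimic in A-498, and 24.3, 24.1 and 24.7 CPM with the control inhibitor and 26.9, 29.1 and 27.6 CPM with the miR-29 inhibitor in ACHN. Both fell in A-498 (log2 -0.79 and -0.61) and rose in ACHN (log2 0.21 and 0.19), with no overlap of groups in either line. The rise of SDF2L1 had adjusted p-values of 0.0922, 0.123 and 0.122 without ACHN control library 1, control library 3 and inhibitor library 1. MANF, a soluble factor that binds BiP, read 33.9 and 35.5 CPM with the control mimic and 25.6 and 23.8 CPM with the miR-29 mimic in A-498 and fell by 0.49 on the log2 scale. MANF in ACHN read 73.0, 71.7 and 68.8 CPM with the control inhibitor and 77.6, 75.2 and 76.8 CPM with the miR-29 inhibitor, with all 3 inhibitor libraries above the controls but a log2 fold change of 0.11 that did not pass (adjusted p = 0.0811).

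**Figure D2:**
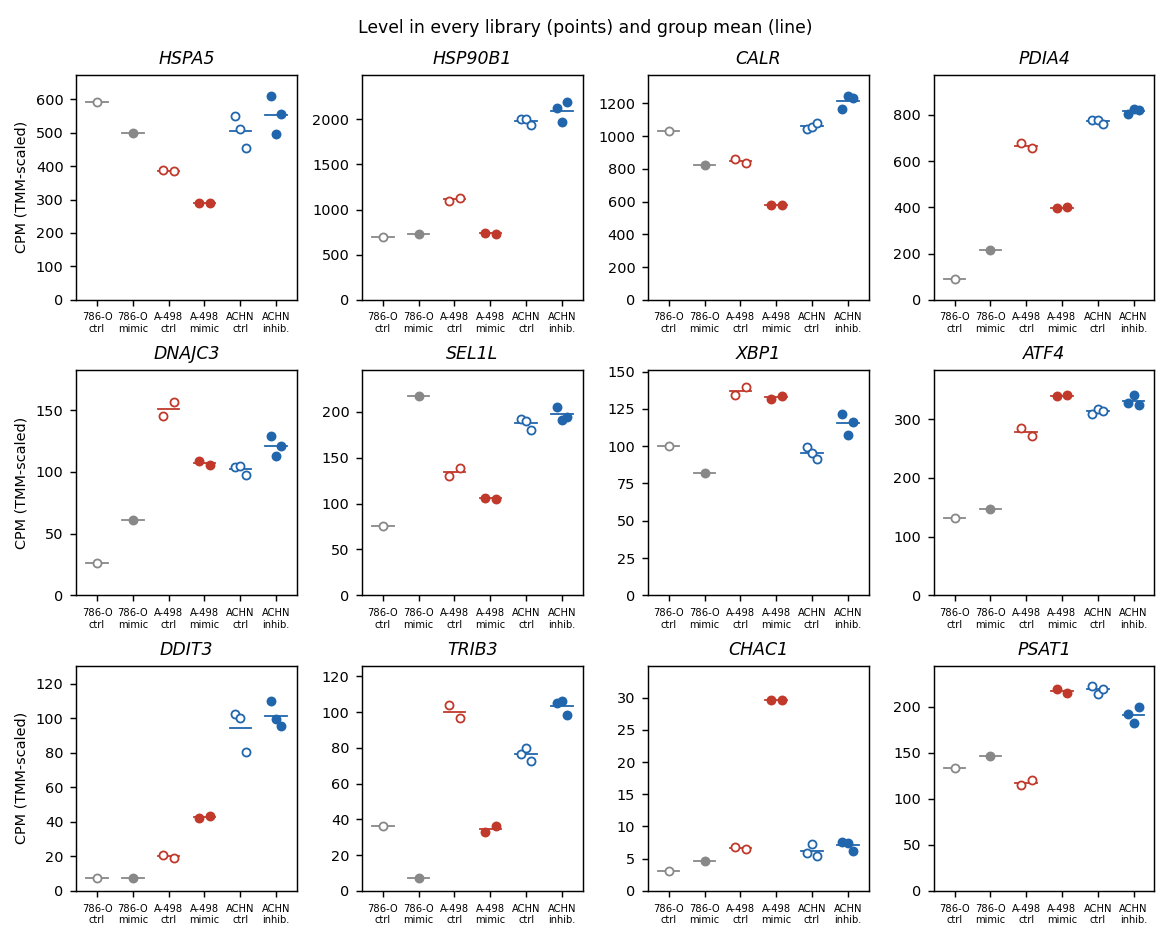
Level of 12 members in every library (y axis, TMM-scaled CPM on a linear axis from 0; x axis, line and treatment). Open points are control libraries, filled points are libraries with the miR-29 mimic or inhibitor, and lines are group means. CHAC1 stands near 30 CPM in both A-498 mimic libraries and under 8 CPM in every other library, and PDIA4, DNAJC3 and SEL1L are higher with the mimic in 786-O but lower with it in A-498.

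The protein disulphide isomerases form and rearrange the disulphide bonds of secreted proteins, and all 4 fell in A-498. PDIA4 (ENSG00000155660, chr7:149003062-149028662, minus strand) fell furthest, from 679 and 654 CPM with the control mimic to 397 and 399.7 CPM with the miR-29 mimic, a log2 fold change of -0.74 ± 0.035 (SE, adjusted p = 4.07e-10). PDIA4 in ACHN read 779, 777 and 758 CPM with the control inhibitor and 804, 827 and 819 CPM with the miR-29 inhibitor, groups that did not overlap but whose log2 difference of 0.082 ± 0.033 (SE, adjusted p = 0.0635) did not pass. PDIA3, the isomerase that works with CALR and CANX, read 416 and 416 CPM with the control mimic and 298 and 299 CPM with the miR-29 mimic in A-498 and fell by 0.48 on the log2 scale. PDIA3 in ACHN read 357, 369 and 368 CPM with the control inhibitor and 388, 393 and 426 CPM with the miR-29 inhibitor and rose by 0.14, a call lost without control library 1 (adjusted p = 0.0679) or inhibitor library 3 (0.0891). P4HB is both an isomerase and the shared subunit of the collagen prolyl 4-hydroxylases. It read 1122 and 1039.7 CPM with the control mimic and 912 and 921 CPM with the miR-29 mimic in A-498, a fall of 0.24 on the log2 scale, and 568, 598 and 607 CPM with the control inhibitor and 604, 650.3 and 616 CPM with the miR-29 inhibitor in ACHN, where the groups overlapped (log2 0.077, adjusted p = 0.148). PDIA6 read 567 and 569 CPM with the control mimic and 453 and 457 CPM with the miR-29 mimic in A-498, a fall of 0.32, and 673, 661 and 683 CPM with the control inhibitor and 647, 646 and 679 CPM with the miR-29 inhibitor in ACHN (log2 -0.034, adjusted p = 0.512). It was the only one of the 15 chaperones and isomerases with a value below 0 in ACHN.

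The 3 degradation factors, which send misfolded proteins back to the cytosol, did not move as one. SEL1L (ENSG00000071537, chr14:81471547-81533853, minus strand), the adaptor of the ER ubiquitin ligase, read 129.8 and 139 CPM with the control mimic and 107 and 105 CPM with the miR-29 mimic in A-498 and fell, at a log2 fold change of -0.35 ± 0.044 (SE, adjusted p = 1.12e-05). Its ACHN libraries read 192, 190.2 and 180.3 CPM with the control inhibitor and 205, 191 and 195 CPM with the miR-29 inhibitor and overlapped (log2 0.072, adjusted p = 0.245). EDEM1, which marks glycoproteins for disposal, read 77.6 and 78.3 CPM with the control mimic and 97.3 and 98.9 CPM with the miR-29 mimic in A-498 and rose by 0.33 on the log2 scale, against the direction of the chaperones. In ACHN its libraries read 108, 109 and 103 CPM with the control inhibitor and 110.4, 108 and 111 CPM with the miR-29 inhibitor and overlapped (log2 0.039). HERPUD1, a membrane protein of the same ligase complex, read 82.7 and 83.7 CPM with the control mimic and 81.6 and 77.4 CPM with the miR-29 mimic in A-498 without a call (log2 -0.066, adjusted p = 0.241). HERPUD1 in ACHN read 120.1, 123 and 112 CPM with the control inhibitor and 160.1, 151 and 148 CPM with the miR-29 inhibitor, and it rose without overlap by 0.37 ± 0.049 (SE, adjusted p = 1.31e-05). SEC61B, a subunit of the channel through which proteins enter the ER, read 111 and 114 CPM with the control mimic and 109 and 107 CPM with the miR-29 mimic in A-498 without a call (log2 -0.055). It read 47.7, 45.8 and 45.2 CPM with the control inhibitor and 53.7, 54.6 and 52.3 CPM with the miR-29 inhibitor in ACHN and rose by 0.21 on the log2 scale. The A-498 values of HERPUD1 and SEC61B turned to 0.011 and 0.021 when scaled by library size alone.

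The sensors rose or had no call. ERN1 (ENSG00000178607, chr17:64039080-64130819, minus strand), the kinase and nuclease that splices XBP1 mRNA, read 15.1 and 14.7 CPM with the control mimic and 18.0 and 17.0 CPM with the miR-29 mimic in A-498, and 10.1, 11.3 and 9.10 CPM with the control inhibitor and 11.7, 11.1 and 10.2 CPM with the miR-29 inhibitor in ACHN. The mimic libraries lay above the controls in A-498 at a log2 fold change of 0.24 ± 0.068 (SE, adjusted p = 0.00964), and the transcript holds the seed match shown above. This call was lost without mimic library 1 (adjusted p = 0.164) and with DESeq2 (0.0692). In ACHN the groups overlapped (log2 0.11). EIF2AK3, the kinase that slows translation, read 73.3 and 74.4 CPM with the control mimic and 81.3 and 75.8 CPM with the miR-29 mimic in A-498 without a call (log2 0.09, adjusted p = 0.126, and 0.00757 for a rise of 0.17 when scaled by library size alone). EIF2AK3 in ACHN read 46.1, 43.8 and 43.7 CPM with the control inhibitor and 50.8, 49.1 and 55.4 CPM with the miR-29 inhibitor and rose by 0.22 on the log2 scale. ATF6, a membrane-bound factor released by cleavage in the Golgi, read 91.8 and 97.3 CPM with the control mimic and 108 and 108 CPM with the miR-29 mimic in A-498 and rose by 0.19. ATF6 in ACHN read 145, 143 and 139.7 CPM with the control inhibitor and 155, 147 and 153 CPM with the miR-29 inhibitor, above the controls in all 3 libraries, with a log2 fold change of 0.091 that passed only without inhibitor library 2 (adjusted p = 0.0297). ERN1 and EIF2AK3 were also among the lowest members per kilobase of merged exon, at 0.778 and 3.57 CPM per kb in the A-498 controls. Their exons merged over all annotated isoforms span 19153 and 20691 bases, and the low rank depends on those lengths.

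Among the transcription factors, XBP1, the factor that ERN1 activates by splicing, read 134 and 139.5 CPM with the control mimic and 132 and 134 CPM with the miR-29 mimic in A-498, with a log2 fold change of -0.043 that did not pass (adjusted p = 0.393) and that became 0.034 when scaled by library size alone. XBP1 in ACHN read 99.2, 95.5 and 91.3 CPM with the control inhibitor and 122, 108 and 116 CPM with the miR-29 inhibitor, and it rose without overlap by 0.27 ± 0.052 (SE, adjusted p = 0.000491). Gene counts do not separate its spliced from its unspliced form. ATF4, which is translated when eIF2 is phosphorylated, read 285 and 271 CPM with the control mimic and 339 and 340.3 CPM with the miR-29 mimic in A-498 and rose by 0.29 on the log2 scale, whereas in ACHN it read 309, 317 and 314 CPM with the control inhibitor and 327, 341 and 323 CPM with the miR-29 inhibitor (log2 0.077, adjusted p = 0.144). DDIT3 (ENSG00000175197, chr12:57516588-57521737, minus strand), the stress factor CHOP, read 21.0 and 18.9 CPM with the control mimic and 42.0 and 43.5 CPM with the miR-29 mimic in A-498. That is a log2 fold change of 1.10 ± 0.062 (SE, adjusted p = 2.59e-09), whereas the ACHN libraries, at 103, 100.5 and 80.7 CPM with the control inhibitor and 110.0, 99.6 and 95.3 CPM with the miR-29 inhibitor, overlapped (log2 0.10). CREB3L1 and CREB3L2 are membrane-bound factors related to ATF6 that act on secretory and matrix genes. CREB3L2 read 132 and 136 CPM with the control mimic and 110.0 and 109 CPM with the miR-29 mimic in A-498 and fell by 0.29 on the log2 scale. In ACHN its libraries read 52.1, 48.2 and 48.3 CPM with the control inhibitor and 51.3, 50.6 and 48.0 CPM with the miR-29 inhibitor and overlapped (log2 0.012). CREB3L1 was barely read in both lines, at 0.476 to 2.0 CPM in the A-498 libraries and 0.495 to 1.40 CPM in those of ACHN. At that level it rose in A-498, by a log2 fold change of 1.59 ± 0.22 (SE, adjusted p = 3.52e-05), and it fell in ACHN, at -1.03 ± 0.21 (SE, adjusted p = 0.000792).

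The targets of ATF4 and of the wider stress response divided more sharply. TRIB3 (ENSG00000101255, chr20:362835-397559, plus strand), a pseudokinase induced by ATF4 and CHOP, read 104 and 96.8 CPM with the control mimic and 33.0 and 36.1 CPM with the miR-29 mimic in A-498. TRIB3 in ACHN read 76.5, 80.1 and 72.7 CPM with the control inhibitor and 105, 106 and 98.2 CPM with the miR-29 inhibitor. It fell in A-498, at a log2 fold change of -1.54 ± 0.055 (SE, adjusted p = 2.75e-11), the largest fall of any member, and rose in ACHN, at 0.43 ± 0.05 (SE, adjusted p = 2.55e-06). CHAC1 (ENSG00000128965, chr15:40952962-40956512, plus strand), which breaks down glutathione, read 6.79 and 6.51 CPM with the control mimic and 29.6 and 29.7 CPM with the miR-29 mimic in A-498. Its log2 fold change of 2.16 ± 0.069 (SE, adjusted p = 9.88e-12) was the largest rise of any member, while its ACHN libraries, at 5.81, 7.21 and 5.42 CPM with the control inhibitor and 7.63, 7.47 and 6.13 CPM with the miR-29 inhibitor, overlapped (log2 0.20, adjusted p = 0.189). So TRIB3 and CHAC1, both known as ATF4 targets, moved in opposite directions in the same A-498 libraries.

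PPP1R15A, which brings a phosphatase to eIF2 and lets translation resume, read 57.6 and 54.3 CPM with the control mimic and 95.7 and 97.5 CPM with the miR-29 mimic in A-498. PPP1R15A in ACHN read 59.1, 67.9 and 55.1 CPM with the control inhibitor and 86.1, 83.3 and 75.4 CPM with the miR-29 inhibitor, so that it rose with the mimic in one line (log2 0.79) and with the inhibitor in the other (log2 0.43). ASNS, asparagine synthetase, read 98.8 and 105 CPM with the control mimic and 186 and 190.0 CPM with the miR-29 mimic in A-498 and rose by 0.88 on the log2 scale. Its ACHN libraries, at 125, 126 and 113 CPM with the control inhibitor and 119.7, 112 and 118 CPM with the miR-29 inhibitor, overlapped (log2 -0.06). PSAT1 and PHGDH make serine from glycolytic intermediates, and they moved together. PSAT1 (ENSG00000135069, chr9:78297125-78330093, plus strand) read 115 and 119.8 CPM with the control mimic and 219 and 215 CPM with the miR-29 mimic in A-498, and 223, 214 and 219.5 CPM with the control inhibitor and 191, 182 and 199 CPM with the miR-29 inhibitor in ACHN, with log2 fold changes of 0.89 ± 0.039 (SE, adjusted p = 2.28e-10) and -0.20 ± 0.044 (SE, adjusted p = 0.00208). PHGDH read 108 and 102 CPM with the control mimic and 167 and 172 CPM with the miR-29 mimic in A-498 and rose by 0.69 on the log2 scale. PHGDH in ACHN read 86.7, 86.6 and 91.2 CPM with the control inhibitor and 75.1, 78.2 and 74.7 CPM with the miR-29 inhibitor and fell by 0.21. DDIT4, an inhibitor of mTORC1 signalling, read 238 and 229 CPM with the control mimic and 234 and 246 CPM with the miR-29 mimic in A-498, with overlapping groups and no call (log2 0.043, adjusted p = 0.391). DDIT4 in ACHN read 79.9, 85.5 and 78.1 CPM with the control inhibitor and 89.9, 96.5 and 84.3 CPM with the miR-29 inhibitor, also overlapping, and its log2 fold change of 0.15 (adjusted p = 0.0374) was lost without control library 1 or 3, inhibitor library 1 or 2, or TMM scaling (0.0622 to 0.151).

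In 786-O there was 1 library per group, so its values carry no test, and intervals cover counting error only (95%, exact binomial). Of the 33 members measured, 4 were higher by more than 1.5-fold with the mimic, where 15.7% of all 20370 genes were, and 2 were lower, where 19.0% were. PHGDH had 0 reads in both libraries, which allows at most 0.0674 and 0.0670 CPM. SEL1L was at 75.5 CPM in the 786-O control library and 217 CPM in its mimic library, a log2 ratio of 1.52 (interval 1.47 to 1.58). PDIA4 was at 90.4 CPM in the 786-O control library and 214 CPM in its mimic library, a log2 ratio of 1.24 (1.19 to 1.30). DNAJC3 was at 26.3 CPM in the 786-O control library and 61.3 CPM in its mimic library, a log2 ratio of 1.22 (1.12 to 1.32). These 3 genes fell with the same mimic in A-498. ASNS was at 12.4 CPM in the 786-O control library and 18.7 CPM in its mimic library, a log2 ratio of 0.59 (0.44 to 0.75), so it lay higher with the mimic in both lines. TRIB3 was at 36.1 CPM in the 786-O control library and 7.31 CPM in its mimic library, a log2 ratio of -2.30 (-2.48 to -2.13), and DNAJB11 was at 33.3 CPM in the 786-O control library and 18.3 CPM in its mimic library, a log2 ratio of -0.86 (-0.99 to -0.74). Both also fell in A-498. The abundant chaperones lay within 1.5-fold of the control. HSPA5 read 593 CPM with the control mimic and 499 CPM with the miR-29 mimic (log2 -0.25). CALR read 1033 CPM with the control mimic and 822 CPM with the miR-29 mimic (log2 -0.33). Both were lower with the mimic, as in A-498, whereas the next pair was almost level. HSP90B1 read 698 CPM with the control mimic and 733 CPM with the miR-29 mimic (log2 0.069). CANX read 1323 CPM with the control mimic and 1328 CPM with the miR-29 mimic (log2 0.0055). CHAC1 and DDIT3, which rose with the mimic in A-498, were low here. CHAC1 read 3.10 CPM with the control mimic and 4.56 CPM with the miR-29 mimic (log2 0.55). DDIT3 read 7.17 CPM with the control mimic and 7.73 CPM with the miR-29 mimic (log2 0.11, interval -0.11 to 0.33).

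The other 21 members of the 33 also lay within 1.5-fold in 786-O, with log2 ratios from -0.37 (SDF2L1) to 0.52 (CREB3L2). The sensors ERN1 and ATF6 were higher with the mimic, while the counting interval of EIF2AK3 included 0 (-0.014 to 0.19). ERN1 read 14.2 CPM with the control mimic and 16.7 CPM with the miR-29 mimic. EIF2AK3 read 35.5 CPM with the control mimic and 37.7 CPM with the miR-29 mimic. ATF6 read 69.8 CPM with the control mimic and 96.6 CPM with the miR-29 mimic. Of the transcription factors, XBP1 was lower and ATF4, CREB3L1 and CREB3L2 were higher. XBP1 read 100.4 CPM with the control mimic and 81.9 CPM with the miR-29 mimic. ATF4 read 131 CPM with the control mimic and 147 CPM with the miR-29 mimic. The membrane-bound pair was higher, and CREB3L1, barely read in A-498 and ACHN, was above 10 CPM here. CREB3L1 read 11.9 CPM with the control mimic and 16.4 CPM with the miR-29 mimic. CREB3L2 read 293 CPM with the control mimic and 421 CPM with the miR-29 mimic. Of the co-chaperones and small folding factors, HYOU1, DNAJB9 and SDF2L1 were lower and CRELD2 higher, while the interval of MANF included 0 (-0.016 to 0.15). HYOU1 read 275 CPM with the control mimic and 235 CPM with the miR-29 mimic. DNAJB9 read 18.4 CPM with the control mimic and 14.9 CPM with the miR-29 mimic. SDF2L1 read 8.45 CPM with the control mimic and 6.53 CPM with the miR-29 mimic. MANF and CRELD2 were modest in level. MANF read 49.2 CPM with the control mimic and 51.6 CPM with the miR-29 mimic. CRELD2 read 8.74 CPM with the control mimic and 11.7 CPM with the miR-29 mimic. The isomerases other than PDIA4 were near their controls. P4HB read 557 CPM with the control mimic and 564 CPM with the miR-29 mimic. PDIA3 read 366 CPM with the control mimic and 323 CPM with the miR-29 mimic. PDIA6 read 311 CPM with the control mimic and 332 CPM with the miR-29 mimic. EDEM1 stood out from the degradation and translocon genes left, as the one furthest above its control. EDEM1 read 115 CPM with the control mimic and 163 CPM with the miR-29 mimic. HERPUD1 read 21.3 CPM with the control mimic and 23.4 CPM with the miR-29 mimic. SEC61B read 30.2 CPM with the control mimic and 28.3 CPM with the miR-29 mimic. The ATF4 and stress targets left were all close to their controls. DDIT4 read 24.6 CPM with the control mimic and 22.7 CPM with the miR-29 mimic. PPP1R15A read 35.5 CPM with the control mimic and 39.9 CPM with the miR-29 mimic. PSAT1 read 133 CPM with the control mimic and 146 CPM with the miR-29 mimic.

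Reads that the counting assigned to no feature made up 14.3% of the 786-O control library and 18.3% of its mimic library. The counting was strict, so such reads need not lie outside genes, and reads reaching into introns can be among them. Mitochondrial genes took 7.55% to 7.75% of the reads in genes in 786-O, against 0.770% to 1.24% in the other lines. The part of either in these ratios was not tested.

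The effect of the mimic was then compared between 786-O and A-498 in 1 model over the 6 libraries, with an interaction of line and treatment and a single TMM scaling. Since 786-O adds no replicate, only the A-498 libraries set the error of this test. Against that error 22 members passed, more positive in 786-O for 15, where 16.5% of all 22587 genes tested were, and more negative for 7, where 13.2% were. Scaling by library size alone gave 13 and 9 members, and over all genes turned 3723 more positive and 2972 more negative into 2796 and 3931. The differences were largest for PDIA4 (2.03 on the log2 scale, adjusted p = 2.77e-14), SEL1L (1.92, adjusted p = 5.51e-13) and DNAJC3 (1.76, adjusted p = 1.28e-11) among the positive, and for CHAC1 (-1.55, adjusted p = 1.74e-06) among the negative. With the biological coefficient of variation set at 0.2, in place of the 3.84% estimated from A-498, PDIA4, SEL1L and DNAJC3 alone passed, so the calls of the other members rest on the spread among the A-498 libraries holding for 786-O too. Without A-498 mimic library 1, 9 members were more positive in place of 15.

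**Figure D3:**
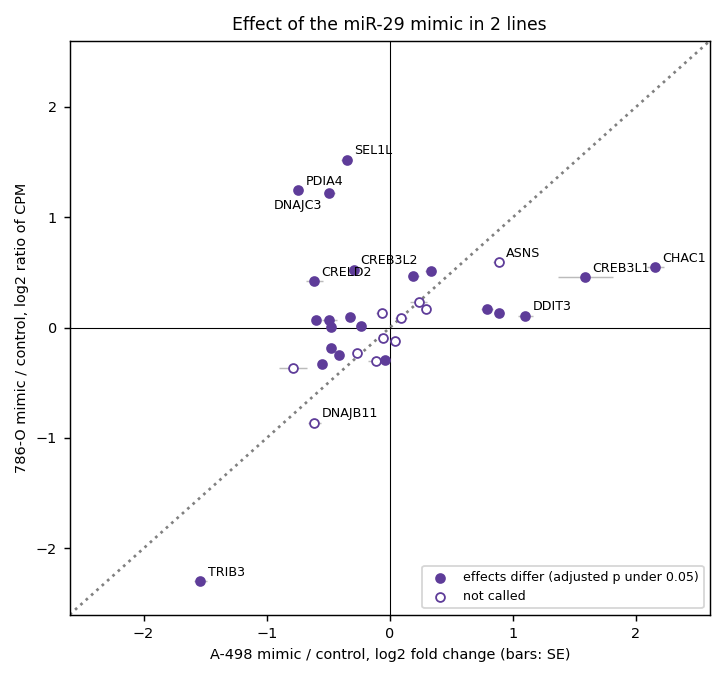
Effect of the miR-29 mimic on 33 members in A-498 (x axis, log2 fold change, bars are standard errors) and in 786-O (y axis, log2 ratio of CPM from 1 library each). Filled points passed the interaction test at an adjusted p under 0.05, with its error from A-498 alone, and the dotted line marks equal effects. SEL1L, PDIA4 and DNAJC3 lie in the upper left, higher in 786-O and lower in A-498, and TRIB3 lies in the lower left.

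To set the folding machinery beside matrix output, the CPM of each list were summed in every library. The matrix list held 53 genes, namely the collagen chain genes counted in the files with SPARC, FN1, LAMC1, LAMB1, LAMA4, FBN1, FBN2, NID1 and ELN. In A-498 the matrix sum went from 6809.6 and 6573 CPM with the control mimic to 2859.7 and 2893 CPM with the miR-29 mimic, a change of -57.0%. The 15 chaperones and isomerases went from 6971 and 6952 CPM to 5057 and 5037 CPM, a change of -27.5%. In ACHN the matrix sum went from 6175, 6461 and 6606 CPM to 9699, 10569 and 10166 CPM (58.2%), and the chaperones and isomerases from 7615, 7597 and 7441 CPM to 8180.4, 7914 and 8282 CPM (7.61%). Neither sum overlapped between groups in A-498 or ACHN. In ACHN, however, 6 of the 15 chaperones and isomerases had no call of their own. Among these were HSP90B1 (group means 1983 and 2097 CPM) and HSPA5 (505 and 554 CPM), which add to the sum. In 786-O the matrix sum went from 9988 to 6502 CPM (-34.9%), while the chaperones and isomerases stood at 5391 and 5213 CPM (-3.30%). The 2 sums thus moved in the same direction in both replicated lines, the folding sum by the smaller share. Much of the change in the matrix sum lay in SPARC and COL4A1, the miR-29 targets named earlier. In A-498 their group means went from 2413.5 and 556 CPM to 474 and 102 CPM. In ACHN they went from 362 and 714 CPM to 1589 and 2153 CPM. The 7 ATF4 and stress response targets summed to 727 and 714 CPM against 965 and 986 CPM in A-498 (35.4%) and 656, 667 and 635 CPM against 675, 666 and 656 CPM in ACHN (1.96%), where the groups overlapped, and to 245 against 239 CPM in 786-O (-2.45%). Of the matrix genes tested, 25 of 40 fell and 8 rose in A-498 (4 rose with DESeq2), and 21 of 31 rose and 1 fell in ACHN. The fall in ACHN was that of FN1 (log2 -0.38), and COL27A1 was among those that rose in A-498 (log2 0.62).

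**Figure D4:**
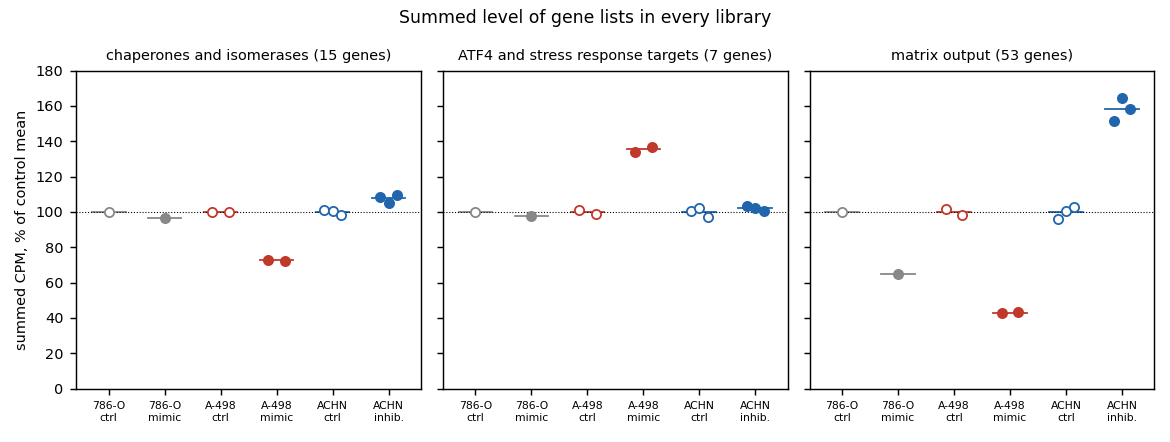
Summed CPM of 3 gene lists in every library (points) as a percent of the control mean of the same line (y axis, linear from 0), by line and treatment (x axis), with lines at group means. In A-498 the chaperones and isomerases differ from the controls by -27.5% and the matrix list by -57.0%, and in ACHN by 7.61% and 58.2%.

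The remaining secretory genes were read from 6 further lists, to be set against the 27.0% of all genes that fell and 25.5% that rose in A-498, and the 14.4% and 17.3% in ACHN. Of the 28 other ER folding factors, 10 fell and 5 rose in A-498, and 5 fell and 4 rose in ACHN, with median log2 fold changes of -0.024 and 0.028. ERO1B, an oxidase that recharges the isomerases, and ERP44, which retains it, rose in ACHN (log2 0.69 and 0.32) and fell in A-498 (log2 -0.46 and -0.36). UGGT2, TXNDC12 and DNAJB14 went the other way, rising in A-498 (log2 0.21, 0.25 and 0.17) and falling in ACHN (log2 -0.21, -0.16 and -0.23). Of the 26 other ER-associated degradation factors, 13 fell and 2 rose in A-498, which library size scaling made 9 and 6, and none fell and 7 rose in ACHN. EDEM3, a relative of EDEM1, fell from 120.0 ± 5.84 to 54.2 ± 3.10 CPM in A-498 (mean ± SD, n = 2) and rose from 83.1 ± 0.662 to 113 ± 6.70 CPM in ACHN (n = 3). Of the 24 genes of the translocon, signal peptidase and signal recognition, 13 fell and 4 rose in A-498, which library size scaling made 11 and 7, and 3 fell and 6 rose in ACHN. TRAM2, a translocon-associated protein used in collagen synthesis, fell by 1.83 on the log2 scale in A-498 and rose by 0.40 in ACHN, and SRPRB, a subunit of the signal recognition receptor, fell by 0.63 and rose by 0.28. SSR1 and SEC61A2, subunits of the translocon and its partner complex, rose in A-498 (log2 0.36 and 0.39).

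Of the 24 genes of COPII export and retrieval, 7 fell and 9 rose in A-498, which library size scaling made 4 and 12, and 2 fell and 6 rose in ACHN. SEC24D, a cargo adaptor of the COPII coat, fell from 134 ± 0.917 to 74.0 ± 0.772 CPM in A-498 (mean ± SD, n = 2) and rose from 45.6 ± 0.378 to 64.4 ± 3.34 CPM in ACHN (n = 3), whereas SEC23B, another coat subunit, rose by 0.37 on the log2 scale in A-498 and fell by 0.20 in ACHN. Of the 17 other regulators of the unfolded protein response, 5 fell and 5 rose in A-498, and of the 15 tested in ACHN 1 fell and 4 rose. MBTPS1, the protease that cleaves ATF6, CREB3L1 and CREB3L2 in the Golgi, fell by 0.70 on the log2 scale in A-498 and rose by 0.31 in ACHN. Of the 35 other ATF4 and integrated stress response genes, 7 fell and 19 rose in A-498, and 9 fell and 8 rose in ACHN. ATF3 rose in both lines (log2 2.40 and 0.50), and SESN2 rose by 1.83 on the log2 scale in A-498. SLC7A5 and SLC3A2, the chains of a transporter for large amino acids and known ATF4 targets, had log2 fold changes of -2.09 and -1.26 there. In 786-O, CALU, a calcium-binding ER protein, and MCFD2, a cargo receptor subunit, had log2 ratios of 2.59 and 2.14 with the mimic, against log2 fold changes of -0.40 and 0.47 in A-498.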

How the data were processed

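The RNA was extracted from whole wells, depleted of ribosomal RNA, made into stranded libraries and sequenced as paired 100-base reads. Per the study's methods the authors aligned reads to GRCh38 with HISAT2 and counted them per Ensembl gene with HTSeq in its intersection-strict mode, and the file names mark reverse-strand counting. The versions of HISAT2, HTSeq and the authors' DESeq2 are not given in the sources used here. The deposited values used are these raw counts, 1 table per library, and 37.2% to 48.0% of reads, assigned to no single gene, stayed out of library sizes and tests. The deposited tables of the authors' DESeq2 comparisons (log2 fold changes and p-values) were not used.

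Ensembl IDs were paired with symbols through GENCODE v44, which matched 56948 of 58051 (98.1%) and also gave positions and UTRs. It is another release than the one the authors counted on, of the same build. CPM use TMM-scaled library sizes. A-498 and ACHN were each fitted alone with edgeR 4.0.16 in R 4.3.3 (TMM, filterByExpr, glmQLFit and glmQLFTest), with Benjamini-Hochberg adjustment over all genes tested and a threshold of 0.05. All 34 members passed the filter in both. Standard errors given with fold changes were derived from the test, as the absolute log2 fold change over the square root of its F statistic. For 786-O the log2 ratio of CPM with a prior count of 2 was taken over genes with at least 10 counts in both libraries together, and called means past 1.5-fold. The fits were tested on simulated counts first. Alternatives were library size scaling, DESeq2 1.42.0, no filter, a threshold of 0.01, each replicate left out, the replicate number as a block in ACHN, a biological coefficient of variation of 0.2 for the comparison of 786-O with A-498, and for 786-O a prior count of 0.5 and at least 100.0 counts.

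The members, the other lists and the rules for naming genes were chosen with earlier results of these data known. Every member is named by role. Of each other list, up to 3 called genes per direction and line with the largest log2 fold change and an average log2 CPM of at least 3 could be named. The ACHN groups share replicate numbers 1 to 3. Deviations from group means correlated at 0.41, -0.15 and -0.014 for the same number and at -0.47 to 0.33 for different numbers. The numbers were therefore not taken to pair the samples. Replicates of a group differed by more than sampling noise (chi-square per degree of freedom 3.60 to 11.0), so no library was counted as a repeat. The depth makes counting error small for most members, and the number of replicates limits precision. GENCODE lists pseudogenes named after XBP1, ATF4, HSPA5, PDIA3, ASNS and PSAT1, which may share reads with them, and exons of CANX (1.84%) and DNAJB11 (4.81%) overlap another gene on the same strand.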

Additional observations from a re-analysis of the deposited data

Results flagged for a closer look

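For 22 of the 34 genes the response to the mimic passed the interaction test between 786-O and A-498 described above, in which 786-O has 1 library per group and the error comes from A-498 alone. Each value here is the effect in 786-O minus that in A-498, on the log2 scale. Among the chaperones the difference was 0.21 for HSPA5, 0.71 for HSP90B1, 0.26 for CALR, 0.53 for CANX, 1.76 for DNAJC3, 0.61 for MANF and 1.08 for CRELD2. The difference was 0.30 for P4HB, 0.34 for PDIA3, 2.03 for PDIA4 and 0.46 for PDIA6, for the 4 isomerases. The degradation factors SEL1L and EDEM1 differed by 1.92 and 0.22, and the sensor ATF6 by 0.32. Among the transcription factors the differences were -0.20 for XBP1, -0.94 for DDIT3, -1.08 for CREB3L1 and 0.86 for CREB3L2. The 4 ATF4 and stress targets that differed were more negative in 786-O, at -0.72 for TRIB3, -1.55 for CHAC1, -0.57 for PPP1R15A and -0.71 for PSAT1. There was no call for ASNS or DDIT4, and PHGDH, with 0 reads in both 786-O libraries, could not be compared. With library size scaling ASNS (-0.34, adjusted p = 0.0143) and DNAJB11 (-0.30, adjusted p = 0.0347) also passed, both more negative in 786-O. Several of the 22 calls are weak. Without A-498 mimic library 1, ATF6 (adjusted p = 0.132), CALR (0.166), P4HB (0.0996), PDIA3 (0.0591), HSPA5 (0.412) and EDEM1 (0.474) no longer passed. With library size scaling HSPA5 (0.182) and EDEM1 (0.213) did not pass, and EDEM1 did not pass with DESeq2 (0.159) or without the filter on low counts (0.0664). HSPA5 and EDEM1 were also lost without A-498 control library 3 (0.0714 and 0.115) or mimic library 2 (0.132 and 0.133), and XBP1 without mimic library 2 (0.229). No group held 4 or more libraries, so single libraries were not screened for standing apart.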

How the results depend on the processing

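In A-498 the count of members called stayed within 27 to 30 and in ACHN within 15 to 21 under every alternative run, and in 786-O 6 members were past 1.5-fold in each. The comparison of 786-O with A-498 was less stable. Leaving out 1 A-498 library gave 9 to 16 members more positive in 786-O (main value 15, lowest without mimic library 1), and with the biological coefficient of variation at 0.2 3 members passed, 3 more positive and 0 more negative, while 281 of all 22587 genes passed. Signs turned only for values that did not pass the test. With library size in place of TMM these were XBP1 (0.034), HERPUD1 (0.011) and SEC61B (0.021) in A-498, and ERN1 (-0.054), EIF2AK3 (-0.056), HYOU1 (-0.016) and SEC61B (-0.089) in the comparison of 786-O with A-498, where SEC61B was also -0.030 with DESeq2 and -0.018 without the filter on low counts. With 1 library left out, the ACHN value ran from -0.016 to 0.048 for CREB3L2 and from -0.0033 to 0.16 for DDIT3, and the difference of 786-O from A-498 ran from -0.019 to 0.022 for ERN1, from -0.055 to 0.052 for EIF2AK3, from -0.0030 to 0.080 for HYOU1 and from -0.094 to 0.026 for SEC61B. The cause was not tested. With the replicate number as a block, 20 members were called in ACHN (17 higher and 3 lower) in place of 19, HSPA5 being the addition (adjusted p = 0.0296). Same-numbered samples deviated together for number 1 (correlation 0.41) but not for numbers 2 and 3 (-0.15 and -0.014), so the block is given here only. For A-498 and 786-O no paired analysis was possible because the A-498 groups share only replicate number 1 and 786-O has 1 library per group.

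Where leaving out 1 library leaves a single library in an A-498 group, it was assumed to vary as the other group does. The calls of CANX, DDIT4, SDF2L1, PDIA3, DNAJB9 and HYOU1 in ACHN rest on particular libraries, as given above, and that of CANX also on TMM scaling and on edgeR. The 786-O ratios have no replicate check.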
